A study of Mus musculus with 6 samples.

Results

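The cadherin superfamily and the desmosome were followed in cultures of mouse kidney tubule cells with and without Cre-mediated deletion of Setd2. Genes were chosen by symbol alone: protein-coding genes of GENCODE M21 named Cdh, Pcdh, Dsc, Dsg, Dchs, Celsr, Fat or Pkp followed directly by a digit, together with Dsp, Jup and Perp. The rule found 60 genes among the 48526 listed, 23 cadherins, 12 protocadherins, 16 desmosome genes and 9 genes of the Fat, Dachsous and Celsr families. The clustered protocadherins, whose symbols carry a letter before the digit, are not among them.

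KO cultures came from Setd2(F/F)Ksp-Cre+ mice and WT cultures from Setd2(F/F) littermates, so that both groups carried the floxed Setd2 alleles and the KO group alone carried Cre. Setd2 encodes the methyltransferase that trimethylates lysine 36 of histone H3. Mice were 4 to 5 weeks old, and cells of digested kidney cortex were grown in medium holding 100 nM hydrocortisone and 20 ng/ml EGF before total RNA was sequenced in 3 libraries per genotype. Ksp-Cre takes its promoter from Cdh16, the gene of Ksp-cadherin, which is itself one of the 60 genes and marks tubule epithelium, so cells without an active Cdh16 promoter would keep Setd2, and Cre itself and the deletion cannot be told apart. The labels name no separate animal for each library, so p-values measure the spread between these libraries, which may be technical. KO replicate 1 differed from KO replicates 2 and 3 in Xist and Ddx3y (below), so the KO libraries did not all come from the same animal.

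Cadherins are calcium-dependent adhesion proteins. Classical cadherins bind their like on the neighbouring cell and attach through catenins to actin at adherens junctions, whereas the desmosomal cadherins, desmogleins and desmocollins, attach through plakoglobin, plakophilins and desmoplakin to keratin filaments. Fat, Dachsous and Celsr proteins are very large cadherins of planar cell polarity, and nephron segments differ in their classical cadherins, with E-cadherin typical of distal segments and N-cadherin and cadherin-6 typical of the proximal tubule.

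Counted reads per library ran from 86078636 to 106974842. Setd2 itself was at 163, 154 and 158 CPM (counts scaled to library size with TMM factors) in KO and at 185, 168 and 152 CPM in WT, a log2 fold change of -0.08 ± 0.08 (SE, edgeR adjusted p = 0.481). Counts over a whole gene do not check the loss of floxed exons. Epcam, an epithelial adhesion gene, stood at 364 to 386 CPM in KO and 409 to 445 CPM in WT, while 8 of 15 proximal tubule markers averaged under 0.1 CPM. Xist was at 507 and 606 CPM in KO replicates 2 and 3 (called Xist-positive here) and under 1 CPM in the other 4 libraries, and Ddx3y on the Y chromosome ran the other way, so sex and genotype partly coincided. Over the transcriptome 3698 of 17571 tested genes passed the test (Benjamini-Hochberg adjusted p below 0.05 in edgeR's quasi-likelihood test), and 12.0% of the tested genes were higher in KO. Of 10 podocyte markers, all tested, 5 were higher and 0 lower. Their sum was 692 to 726 CPM in KO and 599 to 681 CPM in WT. Most of it was Nes, at 520 CPM in KO and 541 CPM in WT. Of 8 Schwann cell and neuron markers 4 were tested, with 1 higher and 0 lower. Their sums overlapped, with 2.86 to 3.48 CPM in KO and 2.26 to 3.4 CPM in WT. In bulk RNA a change in the share of a cell type and a change in RNA per cell cannot be told apart.

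Of the 60 genes, 44 passed the filter on low counts and were tested. KO libraries had higher levels in 13 and lower levels in 1, and the other 30 missed the threshold. The 14 calls are 31.8% of the tested members, beside 21.0% of all tested genes. Calls higher in KO made up 29.5% of the members and 12.0% of all tested genes, and the lower call made up 2.27% of the members and 9.08% of all tested genes. The median log2 fold change over the 44 members was 0.18, against -0.01 over all tested genes. In 21 members (47.7%) the KO and WT libraries did not overlap, with KO above in 18 and below in 3, beside 41.9% of all tested genes. Members that passed the filter only through one group had to differ (among the calls, Cdh22), so these counts describe the 44 genes and not the 60. Pcdh15, also called, met the filter's minimum in every KO library but in only 2 WT libraries.

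**Figure D1:**
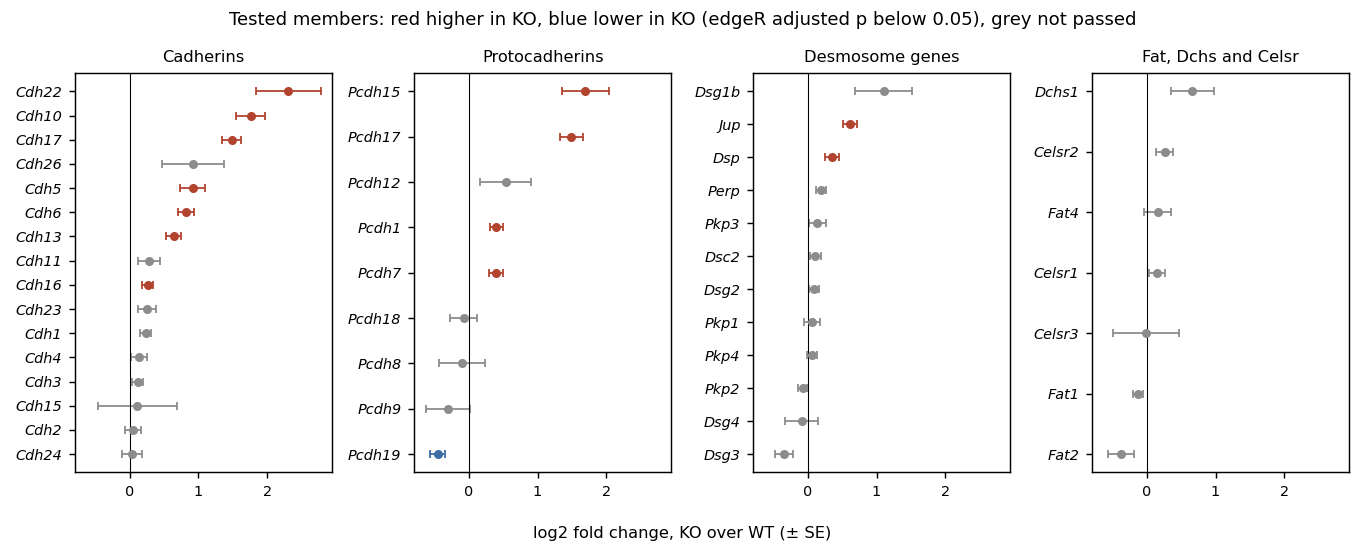
Log2 fold change of KO over WT with its SE (horizontal axis) for the 44 tested members in 4 families, ordered by size, from 3 libraries per group. Red points are the 13 members higher in KO and the blue point is Pcdh19, while 30 grey points did not pass the test. All 16 cadherins lie right of 0, and Fat, Dachsous and Celsr genes hold no coloured point.

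All 16 tested cadherins had a log2 fold change above 0, beside 8600 of all 17571 tested genes. Some lay within their SE of 0, such as Cdh24 (0.04 ± 0.14) and Cdh15 (0.11 ± 0.57). The test was passed by 7, all higher in KO (43.8%, beside 12.0% of all tested genes). The 7 were Cdh17, Cdh10, Cdh6, Cdh13, Cdh5, Cdh22 and Cdh16. Seen by subclass, 4 of 6 tested type II cadherins (3 of 5 without Cdh22, which was tested through KO alone), both long cadherins of the kidney and gut (Cdh16 and Cdh17) and the GPI-anchored Cdh13 rose, while 0 of 5 type I cadherins passed the edgeR test. In that subclass 1 gene, Cdh1, had an unadjusted p below 0.05, and DESeq2 and limma-voom each called 1.

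Cdh17 (LI-cadherin, ENSMUSG00000028217, mm10 chromosome 4, 11758147 to 11817895), an adhesion protein named for liver and intestine, had the smallest adjusted p of the members. It was at 18.9, 15.5 and 17.8 CPM in KO and 7.63, 5.85 and 5.25 CPM in WT. The lowest KO library was far above the highest WT library, and the groups did not overlap. The means were 17.4 ± 1.73 CPM in KO and 6.24 ± 1.24 CPM in WT (SD, n = 3 each), which gave a log2 fold change of 1.48 ± 0.14 (SE) at an adjusted p of 6.79e-05.

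Cdh16 (ENSMUSG00000031881, chromosome 8, 104601911 to 104624396), the closest relative of Cdh17 and the gene that lends its promoter to the Cre, was abundant and moved little. Its levels were 926, 910.3 and 815 CPM in KO and 748, 709 and 748 CPM in WT. Every KO library was above every WT library, with KO replicate 3 nearest to WT. A log2 fold change of 0.27 ± 0.08 gave adjusted p = 0.0366, a call kept in 10 of 16 alternatives and lost, for example, without KO replicate 1 (adjusted p = 0.12), without KO replicate 2 (0.107), without WT replicate 2 (0.117), with an Xist term (0.117) and without the Xist-positive libraries (0.177). Cdh16 is best known in the ascending limb, distal tubule and collecting duct. Summed markers of these segments ran from 979 to 1029 CPM in KO and from 969 to 1135 CPM in WT. Of the 15 genes Wnk1 made up 582 CPM in KO and 626 CPM in WT. Epcam, at the levels given above, made up most of the rest, so the sum hardly reflects the less abundant markers. Of all 14 markers tested, 6 were higher in KO (Slc12a3, Aqp3, Scnn1b, Scnn1g, Hsd11b2 and Kcnj1) and 0 lower. The median log2 fold change was 0.34, and no marker was at 0 in every library. Their part in the Cdh16 difference was not tested.

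Cdh6 (cadherin-6, K-cadherin, ENSMUSG00000039385, chromosome 15, 13028701 to 13173675), a type II cadherin of the developing nephron and the proximal tubule, was at 56.1, 55.7 and 72.8 CPM in KO and 34.02, 38.8 and 31.5 CPM in WT. KO replicate 3 stood above the other KO libraries, and no KO library came near the WT range. It averaged 61.5 ± 9.77 CPM in KO and 34.8 ± 3.72 CPM in WT, with a log2 fold change of 0.82 ± 0.12 and adjusted p = 0.00086. Of 15 proximal tubule markers 8 were not tested, and none was at 0 in every library. Of the 7 tested, 5 were higher in KO (71.4%, beside 12.0% of all tested genes) and 0 lower. In 1 tested marker every KO library lay below every WT library, without a call. The list summed to 210.2 to 232 CPM in KO and 155 to 167 CPM in WT. Most of the sum was Ass1, at 138 CPM in KO and 103 CPM in WT. Their part in the Cdh6 difference was not tested.

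Cdh10 (ENSMUSG00000022321, chromosome 15, 18818947 to 19014236), a type II cadherin best known from brain, was at 2.11, 2.89 and 3.42 CPM in KO and 0.718, 0.81 and 0.963 CPM in WT. The lowest KO value was over the highest WT value, and the KO libraries spread more widely. KO over WT gave a log2 fold change of 1.76 ± 0.21 with adjusted p = 0.000325. It was 1.34 without the Xist-positive KO libraries, which leaves KO replicate 1, the lowest of the KO values.

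Cdh6 and Cdh10 share chromosome 15 with Cdh9, Cdh12, Cdh18 and Celsr1, and of these Cdh9 and Cdh12 had no count in any library. Promoter sequences from RefSeq (GRCm38.p6) were matched for 32 of the 60 members in the table used here, and those of Cdh6 and Cdh10 are shown because both genes rose and neither window holds CACCTG, the E-box letters bound by Snail and Zeb repressors of cadherin genes, on either strand. Each line gives 250 bases before the start site and 20 bases from it on, read along the gene's strand, from chr15:13173656-13173925 (minus) and chr15:18820079-18820348 (plus). The RefSeq start used for Cdh10 lies inside the GENCODE gene.
Cdh6: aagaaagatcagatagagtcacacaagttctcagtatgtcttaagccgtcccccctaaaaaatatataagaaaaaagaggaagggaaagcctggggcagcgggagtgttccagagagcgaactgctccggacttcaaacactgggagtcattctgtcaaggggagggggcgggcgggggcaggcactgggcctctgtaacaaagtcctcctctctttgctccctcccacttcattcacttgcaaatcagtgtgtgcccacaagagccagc
Cdh10: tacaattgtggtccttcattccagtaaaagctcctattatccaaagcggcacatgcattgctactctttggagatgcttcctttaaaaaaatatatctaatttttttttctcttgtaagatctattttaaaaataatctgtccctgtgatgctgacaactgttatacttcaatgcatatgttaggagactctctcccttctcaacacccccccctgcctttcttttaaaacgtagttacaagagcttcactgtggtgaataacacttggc
Base composition set them apart, with 52.2% G and C in the Cdh6 window and 37.4% in the Cdh10 window.

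Cdh13 (T-cadherin, ENSMUSG00000031841, chromosome 8, 118283733 to 119324921), which lacks a cytoplasmic tail and is held by a lipid anchor, was at 34.7, 26.3 and 31.0 CPM in KO and 19.3, 20.9 and 18.9 CPM in WT. The WT libraries lay close together, and KO replicate 2 was the KO library nearest to them. Its log2 fold change was 0.64 ± 0.11 with adjusted p = 0.00221.

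Cdh5 (VE-cadherin, ENSMUSG00000031871, chromosome 8, 104101625 to 104144511), the defining cadherin of endothelium, stood at 10.1, 6.9 and 5.84 CPM in KO and 4.47, 3.62 and 4.01 CPM in WT. KO replicate 1 was well above the other KO libraries, and the groups did not overlap. The log2 fold change of 0.92 ± 0.18 (adjusted p = 0.00587) became 0.68 without KO replicate 1 (adjusted p = 0.0196). Of 12 endothelial markers other than Cdh5, 7 were higher in KO and 0 were lower. Their sum was 46.7, 42.5 and 42.5 CPM in KO and 27.8, 27.5 and 25.3 CPM in WT. No endothelial marker was at 0 in every library, and their part in the Cdh5 difference was not tested.

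Cdh22, a type II cadherin of brain, was at the edge of detection, with 14, 21 and 19 counts in KO and 1, 6 and 4 counts in WT, groups that did not overlap. It reached the filter's minimum of 0.105 CPM in 3 KO libraries and 0 WT libraries, so it was tested through KO alone and its call is no support for a difference. Leaving it out, 6 of 15 tested cadherins and 3 of 5 type II cadherins were higher, and 12 of 43 members in all. The mean was 0.191 ± 0.031 CPM in KO and 0.0365 ± 0.0229 CPM in WT. The call was lost with an Xist term (adjusted p = 0.0993) and without the Xist-positive libraries (0.191).

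The type I cadherins build the adherens junctions of most epithelia. Cdh1 (E-cadherin, ENSMUSG00000000303, chromosome 8, 106603351 to 106670246), the most abundant member in CPM, was at 1264, 1154 and 1188 CPM in KO and 979, 1054 and 1032 CPM in WT. Each KO library was above each WT library, by little. The log2 fold change was 0.23 ± 0.08 with adjusted p = 0.0535, which missed the threshold of 0.05, and 7 of 16 alternatives called it, with DESeq2's adjusted p of 0.0189 the smallest and 0.217 the largest. Cdh3 (P-cadherin), whose gene lies 46.1 kb before Cdh1 on the same strand, was at 172, 189 and 188 CPM in KO and 159.7, 175 and 172 CPM in WT, with overlapping groups and adjusted p = 0.278.

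Cdh2 (N-cadherin, ENSMUSG00000024304) showed no ordering by genotype, with 155, 125 and 156 CPM in KO and 155, 147 and 119 CPM in WT. The range within each genotype was wider than the distance between the means of 145 ± 17.6 CPM in KO and 140.3 ± 19.1 CPM in WT. Its log2 fold change was 0.05 ± 0.11 with adjusted p = 0.791, and the sign turned without KO replicate 3 or WT replicate 3 (lowest value -0.061). Cdh4, another type I cadherin, averaged 20.3 ± 0.608 CPM in KO and 18.5 ± 3.15 CPM in WT, and Cdh15 stayed near 0.1 CPM in both.

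Among cadherins that did not pass the test, Cdh11 (OB-cadherin) is typical of fibroblasts. It was at 19.9, 12.6 and 21.7 CPM in KO and 14.4, 15.9 and 14.2 CPM in WT, so that KO replicate 2 lay below the WT libraries and the other KO libraries above them (adjusted p = 0.231, and 0.0138 without KO replicate 2). The summed fibroblast and pericyte markers were at 177, 117 and 199 CPM in KO and 116, 156 and 148 CPM in WT. Of the 12 markers 5 were higher and 0 lower, none was at 0 in every library, and their part in the Cdh11 values was not tested. Cdh23, the tip-link cadherin of hair cells, averaged 9.14 ± 1.1 CPM in KO and 7.64 ± 1.1 CPM in WT (adjusted p = 0.182), and Cdh24 and Cdh26 had adjusted p-values of 0.878 and 0.161.

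**Figure D2:**
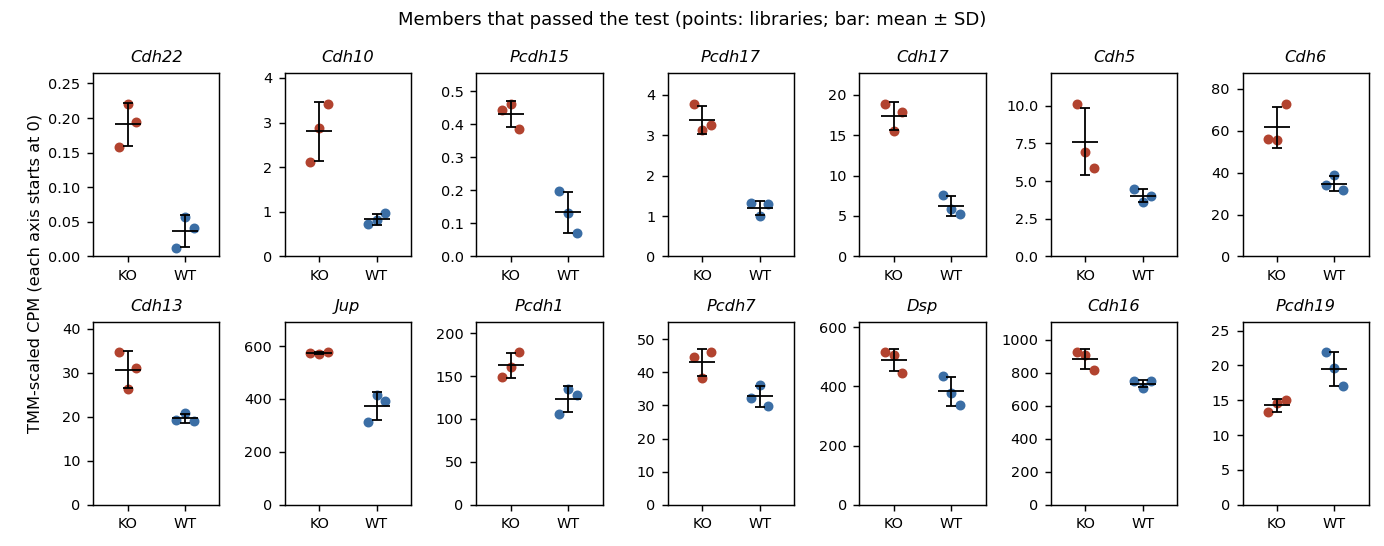
TMM-scaled CPM (vertical axis, from 0) of the 14 members that passed the test, KO left and WT right in each panel, with points for the 3 libraries of a group and a bar with whiskers for mean ± SD. No panel shows overlapping groups, and Pcdh19 is the panel in which KO lies below WT. Cdh5 has its highest point in KO replicate 1, at 10.1 CPM.

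Of 12 protocadherins 9 were tested, 4 rose in KO, 1 fell and the other 4 missed the threshold. Calls higher in KO made up 44.4% of the 9, beside 12.0% of all tested genes. The lower call made up 11.1%, beside 9.08% of all tested genes. Protocadherins are mostly known from neurons, where the delta subfamilies act in homophilic sorting and axon growth. Pcdh17 (ENSMUSG00000035566, chromosome 14, 84443563 to 84539002), a delta-2 protocadherin, was at 3.78, 3.12 and 3.26 CPM in KO and 1.32, 0.998 and 1.3 CPM in WT. Both groups were tight, with a wide gap between them. Its log2 fold change was 1.49 ± 0.16 with adjusted p = 0.000213.

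The abundant delta-1 protocadherins rose by less. Pcdh1 (ENSMUSG00000051375, chromosome 18, 38185914 to 38212053), an adhesion protein of epithelia, was at 149, 160.3 and 178 CPM in KO and 106, 135 and 128 CPM in WT. KO replicate 3 was the highest library and WT replicate 1 the lowest. Pcdh1 had a log2 fold change of 0.40 ± 0.10 (adjusted p = 0.0157), and it was 0.28 both with an Xist term (adjusted p = 0.262) and without the Xist-positive libraries (0.339). The call was lost without KO replicate 3 as well (adjusted p = 0.0765). Pcdh7 (ENSMUSG00000029108, chromosome 5) was at 44.6, 38.3 and 46.1 CPM in KO and 32.3, 36.1 and 29.7 CPM in WT. KO replicate 2 was the KO library nearest to WT, and the groups did not overlap. Its log2 fold change was 0.39 ± 0.10 with adjusted p = 0.0181, and the call was lost without KO replicate 1 (0.0679), without KO replicate 3 (0.0803), with an Xist term (0.0985) and without the Xist-positive libraries (0.133). Pcdh7 shares 2235 exon bases with a transcript on the other strand that had 362 counts in all, and the strand setting of the counting is not given in the sources used here.

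Pcdh19 (ENSMUSG00000051323, X chromosome, 133582860 to 133688987), a delta-2 protocadherin whose human gene is linked to epilepsy, was the member that fell. It was at 13.3, 14.6 and 15.1 CPM in KO and 21.9, 19.6 and 17.1 CPM in WT. The KO libraries lay below the WT libraries, with WT replicate 3 nearest to them, and the Xist-positive KO replicates 2 and 3 were above KO replicate 1. The log2 fold change was -0.45 ± 0.11 with adjusted p = 0.0134, and it was -0.56 when the fit held an Xist term (adjusted p = 0.069) and without the Xist-positive libraries (0.117). The call was also lost without KO replicate 1 (log2 fold change -0.38, adjusted p = 0.0803).

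Pcdh15, the partner of Cdh23 in the tip link, rose at a low level, with 0.43 ± 0.0389 CPM in KO and 0.134 ± 0.0622 CPM in WT. The log2 fold change was 1.69 ± 0.34 with adjusted p = 0.00602. Pcdh15 reached the filter's minimum of 0.105 CPM in 3 KO and 2 WT libraries, so the WT libraries alone would not have carried it through the filter. Its adjusted p was 0.0546 with an Xist term and 0.0912 without the Xist-positive libraries. Pcdh8, Pcdh9, Pcdh12 and Pcdh18 had adjusted p-values from 0.322 to 0.864. Pcdh18, the most abundant of these, averaged 1.67 ± 0.204 CPM in KO and 1.76 ± 0.413 CPM in WT.

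Of 16 desmosome genes 12 were tested, and Jup and Dsp, 2 of the cytoplasmic plaque proteins, passed the test, both higher in KO. These calls are 16.7% of the tested desmosome genes. Of all tested genes 21.0% were called and 12.0% were called higher. Of the transmembrane desmogleins and desmocollins 0 of 5 tested genes were called, and of the plakophilins 0 of 4 (edgeR). At an unadjusted p below 0.05 there were 2 among the desmogleins and desmocollins (Dsg1b and Dsg3) and 0 among the plakophilins, and DESeq2 and limma-voom called 0 in either set.

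Jup (plakoglobin, ENSMUSG00000001552, chromosome 11, 100368958 to 100397763) links both desmosomal and classical cadherins to the cytoskeleton. It was at 572, 569.9 and 577 CPM in KO and 313, 416 and 393 CPM in WT. The 3 KO libraries were nearly equal, whereas WT replicate 1 was well under the other WT libraries. The means were 573 ± 3.7 CPM in KO and 374 ± 53.7 CPM in WT, with a log2 fold change of 0.62 ± 0.10 and adjusted p = 0.00201. Without WT replicate 1 the log2 fold change was 0.51, and without the Xist-positive libraries the adjusted p was 0.0576.

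Dsp (desmoplakin, ENSMUSG00000054889, chromosome 13, 38151294 to 38198577) ties the plaque to keratin filaments. It was at 516, 505 and 446 CPM in KO and 435, 378 and 337 CPM in WT. KO replicate 3 came close to WT replicate 1, without overlap. A log2 fold change of 0.35 ± 0.10 gave adjusted p = 0.0292, and 10 of 16 alternatives kept the call. It was lost without KO replicate 1 (adjusted p = 0.104), KO replicate 2 (0.0841), WT replicate 2 (0.0816) or WT replicate 3 (0.0679), with an Xist term (0.109) and without the Xist-positive libraries (0.15).

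The promoter windows of these plaque genes are shown because both rose. They come from RefSeq (GRCm38.p6), chr11:100397771-100398040 (minus) for Jup and chr13:38151044-38151313 (plus) for Dsp, laid out as above, with capitals for the E-box CACCTG or its reverse complement CAGGTG.
Jup: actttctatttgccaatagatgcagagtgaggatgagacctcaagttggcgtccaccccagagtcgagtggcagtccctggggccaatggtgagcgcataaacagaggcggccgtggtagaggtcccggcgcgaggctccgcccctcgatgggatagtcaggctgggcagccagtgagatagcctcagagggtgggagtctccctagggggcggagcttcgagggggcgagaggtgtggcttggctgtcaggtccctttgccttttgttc
Dsp: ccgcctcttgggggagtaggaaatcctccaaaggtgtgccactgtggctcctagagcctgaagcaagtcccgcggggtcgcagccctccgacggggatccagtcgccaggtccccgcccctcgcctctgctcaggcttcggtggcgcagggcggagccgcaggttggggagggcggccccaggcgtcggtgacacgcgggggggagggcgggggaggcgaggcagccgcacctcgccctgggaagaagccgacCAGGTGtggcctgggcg
The Dsp window holds 1 match, 3 bases past the start site, and the Jup window 0. Over the members, 9 of 36 whole RefSeq windows, which run to 50 bases past the start (some genes have several starts), held CACCTG on either strand, 25.0%, beside 20.2% of all 32851 windows. The members with a match were Cdh7, Celsr2, Dsp, Fat1, Pcdh15, Pcdh7 and Pkp4, 7 of the 32 with a promoter. Of the 8 members with a promoter that were higher in KO, 3 had a match (Dsp, Pcdh15 and Pcdh7). A match is a run of letters and not a measured binding site.

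Perp, a membrane protein of desmosomes and a target of p53, was at 129, 121 and 112 CPM in KO and 110.5, 104 and 102 CPM in WT. KO lay above WT by a narrow margin, with a log2 fold change of 0.19 ± 0.07 and adjusted p = 0.0856, and 2 of 16 alternatives called it. Dsg2, the desmoglein of simple epithelia, averaged 175 ± 5.69 CPM in KO and 163 ± 11.2 CPM in WT (log2 fold change 0.10 ± 0.07, adjusted p = 0.378). Its usual partner Dsc2 had 29.2, 31.5 and 29.2 CPM in KO and 28.1, 26.4 and 28.7 CPM in WT, close groups that did not overlap (log2 fold change 0.11 ± 0.08, adjusted p = 0.342).

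The plakophilins, armadillo proteins of the plaque, overlapped between genotypes. Pkp2 averaged 81.1 ± 2.11 CPM in KO and 84.96 ± 1.92 CPM in WT, Pkp3 66.2 ± 1.38 CPM in KO and 60.1 ± 12.0 CPM in WT, Pkp4 181 ± 9.28 CPM in KO and 173 ± 10.1 CPM in WT, and Pkp1 8.61 ± 1.06 CPM in KO and 8.23 ± 0.287 CPM in WT. Their log2 fold changes ran from -0.07 (Pkp2) to 0.14 (Pkp3), with SEs of 0.07 to 0.12. Dsg3, a desmoglein of stratified epithelium, was at 3.24, 2.97 and 3.23 CPM in KO and 3.49, 4.23 and 4.2 CPM in WT, with every KO library below every WT library and adjusted p = 0.0889. Stratified epithelium and urothelium markers summed to 425 to 497 CPM in KO and 271 to 293 CPM in WT, with 3 of 12 higher, 2 lower and 4 not tested, most of the sum being Krt20 at 312 CPM in KO and 234 CPM in WT. Their part in the Jup and Dsp differences was not tested.

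**Figure D3:**
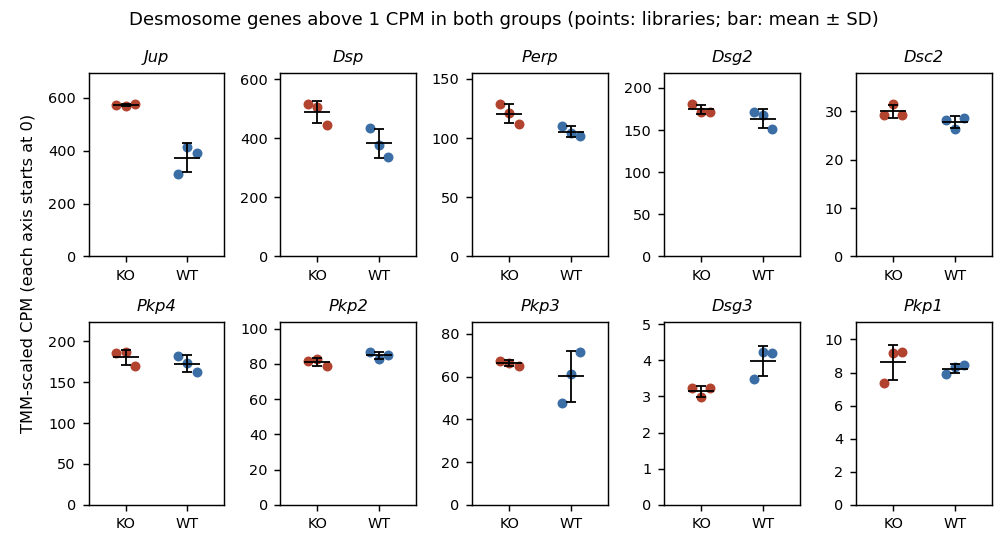
TMM-scaled CPM (vertical axis, from 0) of the 10 desmosome genes above 1 CPM in both groups, KO left and WT right, with points for the 3 libraries of a group and a bar with whiskers for mean ± SD. Jup shows the widest gap, with 569.9 to 577 CPM in KO and 313 to 416 CPM in WT, and the plakophilin panels overlap.

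No Fat, Dachsous or Celsr gene passed the edgeR test among 7 tested (smallest adjusted p 0.151). At an unadjusted p below 0.05 there were 0 as well, and DESeq2 and limma-voom called 0. Fat1 (ENSMUSG00000070047, chromosome 8, 44935447 to 45052257), a giant cadherin needed for podocyte and tubule structure, was the most abundant, at 724, 762 and 749.6 CPM in KO and 812, 790.0 and 843 CPM in WT. The KO libraries lay below the WT libraries, by a log2 fold change of -0.13 ± 0.07 (adjusted p = 0.23). Celsr2 was at 90.4, 112 and 115 CPM in KO and 71.0, 97.6 and 96.4 CPM in WT, where replicate 1 was the lowest library of each genotype. Its adjusted p was 0.155, and 0.0281 with the replicate number as a block. Celsr1 averaged 52.0 ± 3.16 CPM in KO and 46.7 ± 7.64 CPM in WT, Fat4 and Fat2 were near 2 CPM, and Dchs1 and Celsr3 were under 0.4 CPM.

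The 16 members below the filter hardly appeared. Cdh7, Cdh8, Cdh9 and Cdh12 had 0 counts in all 6 libraries, and a count of 0 allows up to 3 counts per library. Pcdh10, a delta-2 protocadherin, had 9, 8 and 14 counts in KO and 1, 2 and 2 counts in WT, groups that did not overlap, and it was called in the fit without a filter (adjusted p = 0.00836). Cdh20 had 24 counts in KO and 9 in WT, Dsc1 had 8 in KO and 0 in WT, and Dsg1c 9 in KO, 8 of them in KO replicate 3, and 1 in WT. Cdh18, Cdh19, Dsc3, Dsg1a, Dchs2, Fat3, Pcdh11x and Pcdh20 had at most 26 counts in a group.

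Levels of different genes were compared as CPM per kb of exon. On that scale Cdh1 was first at 263 ± 12.4 in KO and 223 ± 8.39 in WT, followed by Cdh16 at 233 ± 15.9 in KO and 194 ± 5.92 in WT, and then Jup (89.1 ± 0.575 in KO, 58.1 ± 8.34 in WT) and Perp (61.9 ± 4.29 in KO, 54.1 ± 2.35 in WT). The means of these 4 were in the same order in both genotypes, and in KO the lowest library of each lay above the highest of the next. In WT, Jup and Perp overlapped: WT replicate 1 had Jup at 48.7, below Perp in each WT library (52.04 to 56.6). Dsp and Fat1 changed places, with 50.6 ± 3.95 for Dsp and 47.6 ± 1.24 for Fat1 in KO, where they overlapped, and 39.7 ± 5.08 and 52.1 ± 1.7 in WT. Cdh17 was in place 19 in KO and in place 25 in WT.

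Cdh1 and Cdh16 together dominated the cadherin pool. Cdh1 made up 45.4 ± 1.14% of the summed CPM per kb of the 23 cadherins in KO and 45.8 ± 1.2% in WT, and Cdh16 40.3 ± 1.87% in KO and 39.8 ± 1.51% in WT. Neither share differed between genotypes by more than its SD. With the longest transcript as length, Cdh16 came first, with 44.7% in KO and 44.2% in WT, so the order of the pair depends on the length used. Cdh6 took 1.18 ± 0.222% in KO and 0.791 ± 0.0832% in WT. Among the 16 desmosome genes Jup held 30.1 ± 1.22% in KO and 24.0 ± 3.21% in WT, and Pkp2 5.11 ± 0.107% in KO and 6.55 ± 0.267% in WT.

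**Figure D4:**
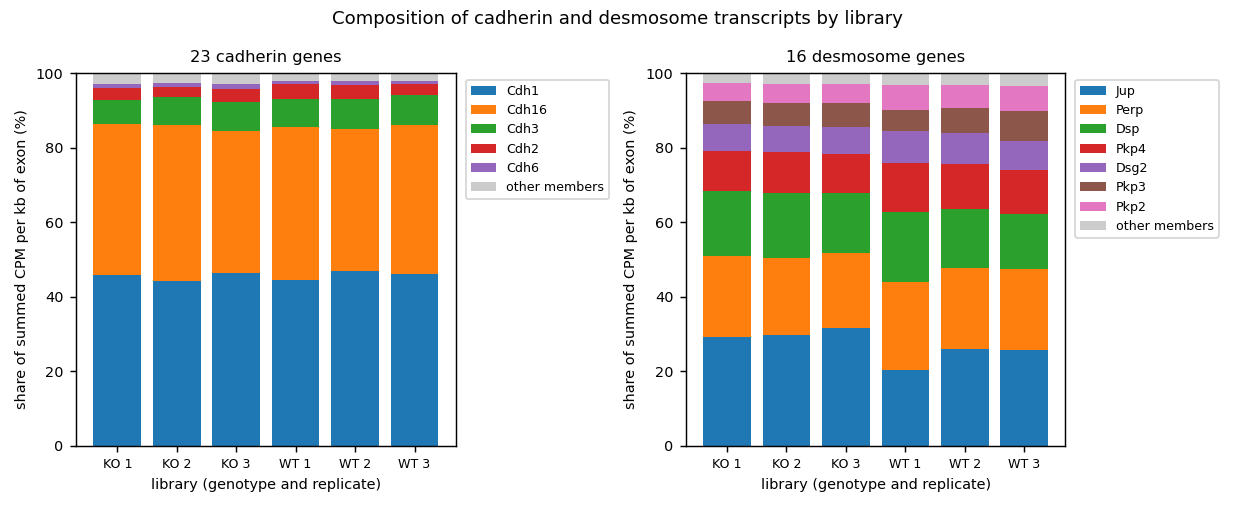
Share of each gene in the summed CPM per kb of exon (vertical axis, %) of 23 cadherin genes (left) and 16 desmosome genes (right), 1 bar per library, KO bars left of WT bars. Cdh1 and Cdh16 fill most of each cadherin bar in both genotypes, and the Jup segment is taller in KO, 29.2 to 31.5%, than in WT, 20.3 to 26.1%.

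Position was not part of the rule. Chromosome 18 holds 12 members, 9 of them the desmocollin and desmoglein cluster, of which 0 of 5 tested were called, and Pcdh1 was the called gene of that chromosome. Chromosome 8 holds 9 members, 8 of them tested, with Cdh5, Cdh16 and Cdh13 higher. Cdh5 and Cdh16 lie 457 kb apart, and Cdh3 and Cdh1, with log2 fold changes of 0.12 and 0.23, lie 46.1 kb apart.

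Junction partners were read from 5 lists of 73 genes. Of 69 tested, 11 were higher, 5 lower and 53 did not pass, 23.2% called beside the 21.0% of all tested genes, with a median log2 fold change of 0.08. Of 15 catenins, nectins and linkers, 1 rose and 1 fell: Nectin1 averaged 15.1 ± 0.113 CPM in KO and 8.22 ± 1.2 CPM in WT (adjusted p = 0.000553), and Nectin3 88.2 ± 4.68 CPM in KO and 112 ± 7.86 CPM in WT (adjusted p = 0.0103). In that list alpha-catenin Ctnna1 was at adjusted p = 0.423 and beta-catenin Ctnnb1 at 0.445, both not called, while Jup, the gamma-catenin, is counted with the desmosome genes.

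Of 11 tested keratins and scaffolds 3 rose and 1 fell. The cytolinkers Evpl (envoplakin) at 29.6 ± 1.54 CPM in KO and 17.9 ± 3.48 CPM in WT, Plec (plectin) at 747 ± 24.5 CPM in KO and 531 ± 78.7 CPM in WT, and Ppl (periplakin) at 199 ± 10.1 CPM in KO and 161 ± 14.6 CPM in WT are plakin relatives of Dsp (adjusted p = 0.00262, 0.0076 and 0.0224). Krt17 fell, with 12.9 ± 3.24 CPM in KO and 48.5 ± 16.6 CPM in WT (adjusted p = 0.000463). Krt8, Krt18 and Krt7, the keratins of simple epithelia, had log2 fold changes of 0.00, 0.03 and -0.03.

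Among 18 transcription factors that act on cadherin and desmosome genes, 5 rose, 2 fell and 11 did not pass. Zeb2, a repressor of Cdh1 that is also expressed in leukocytes and mesenchyme, was at 10.4, 7.2 and 12.4 CPM in KO and 4.77, 4.54 and 3.98 CPM in WT (log2 fold change 1.18 ± 0.17, adjusted p = 0.00115). Fibroblast and pericyte markers summed to 177, 117 and 199 CPM in KO and 116, 156 and 148 CPM in WT. Leukocyte markers summed to 52.6 to 61.4 CPM in KO and 40.4 to 47.8 CPM in WT, with 6 of 12 higher and none at 0 in every library. The part of the fibroblast and leukocyte markers in the Zeb2 difference was not tested. Zeb1 averaged 5.61 ± 0.458 CPM in KO and 3.67 ± 0.594 CPM in WT (adjusted p = 0.0117). Of the Grainyhead factors, activators of epithelial junction genes, Grhl2 fell at 73.1 ± 2.29 CPM in KO and 95.4 ± 4.76 CPM in WT (adjusted p = 0.00393) and Grhl3 rose at 3.25 ± 0.905 CPM in KO and 1.35 ± 0.0749 CPM in WT (adjusted p = 0.00181). The other 3 calls were Trp63, lower, and Snai1 and Twist2, higher and under 1 CPM.

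Of 16 planar polarity partners Prickle2 rose and Fzd3 fell, with 14 not passing, and of 9 tested shedding proteases Mmp13 rose, with 8 not passing. Prickle2 averaged 3.12 ± 0.516 CPM in KO and 1.8 ± 0.278 CPM in WT (adjusted p = 0.00943), and Fzd3 10.8 ± 0.412 CPM in KO and 14.4 ± 0.853 CPM in WT (adjusted p = 0.00945). Mmp13, a collagenase, averaged 14.8 ± 7.16 CPM in KO and 2.79 ± 0.682 CPM in WT (adjusted p = 0.00033). Adam10, the main sheddase of E-cadherin, had a log2 fold change of 0.03 and adjusted p = 0.817.

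The 14 called members kept their direction in all alternatives tried. Their KO and WT libraries did not overlap, so leaving out libraries could hardly turn it, and the kept direction is no sign of stability. The calls of Cdh17, Cdh10, Cdh6, Cdh13, Cdh5 and Pcdh17 were kept in every one of 16 alternatives, and the other 8 were lost in at least 1 of those that gave a value. When an Xist term was added to the fit, 7 of 44 tested members were called, all higher in KO. Beside them, 878 of 17571 tested genes of the whole table were then higher.

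**Figure D5:**
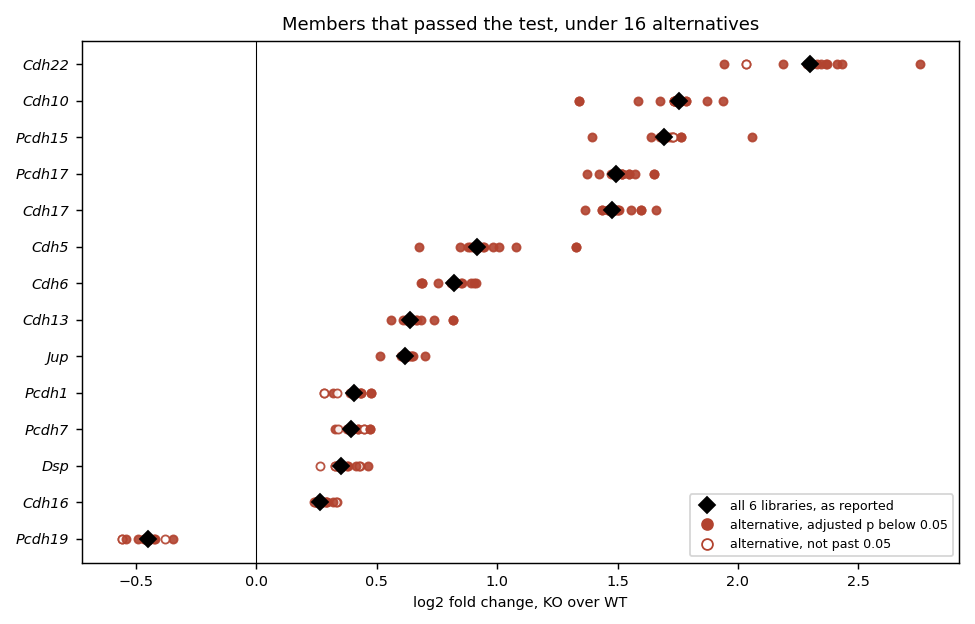
Log2 fold change of KO over WT (horizontal axis) of the 14 called members as reported (black diamonds) and under up to 16 alternatives (circles, filled where adjusted p was below 0.05). All circles of a gene lie on the same side of 0, and open circles appear for genes such as Dsp, Cdh16 and Pcdh1.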

How the data were processed

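The authors deposited whole-number read counts per Ensembl gene, without normalization, 1 table per library. The submitters' processing notes name Trimmomatic 0.38, STAR 2.7.1a, HTSeq 0.11.2 and mm10 without their roles. For the counting, the annotation release, strand setting and handling of multiply mapped reads were not given in the sources used here. Such reads affect near-identical paralogs such as Dsg1a, Dsg1b and Dsg1c.

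Symbols, positions (GRCm38) and exon lengths came from GENCODE M21. Counts were filtered with filterByExpr, scaled with TMM and tested over 17571 genes with edgeR 4.0.16 in R 4.3.3 (quasi-likelihood, genotype as the term, Benjamini-Hochberg, threshold 0.05). Each SE was derived from the fold change and its F statistic. CPM use TMM-scaled library sizes, and intervals of counts of 0 cover counting error only. Members and lists were chosen with earlier results of these data known. Values were printed in full for called members averaging 1 CPM or more and for Cdh16, Cdh1, Cdh2, Cdh6, Cdh5, Dsp, Jup, Perp, Dsg2, Dsc2 and Pkp2, and of partner lists for up to 4 called genes, or the most abundant where none was called. Some members that missed the test (among them Cdh3, Cdh11, Pcdh18, Fat1, Celsr2, Dsg3 and the plakophilins) and Ctnna1, Ctnnb1, Krt7, Krt8, Krt18, Trp63, Snai1, Twist2, Adam10 and the distal markers were named after their values were seen.

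Other settings tried were a replicate block, DESeq2 size factors, upper-quartile factors, library totals, no filter, a mean of at least 1 CPM, DESeq2 1.42.0, limma-voom (limma 3.58.1), an Xist term (marking libraries over 10 CPM), omission of the marked libraries, and leaving out each library. Replicates differed beyond counting noise (chi-square per degree of freedom 22.7 to 77.1 for pairs of libraries). The test was tested on simulated data. Figures used matplotlib 3.10.9.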

Additional observations from a re-analysis of the deposited data

How the results depend on the processing

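Of the 60 members 13 were higher and 1 lower in KO, and these counts became 7 and 0 with the Xist term and 6 and 0 without the Xist-positive libraries. Leaving out 1 library at a time gave 10 to 14 higher and 0 to 2 lower, with 0 lower without KO replicate 1 and 2 without WT replicate 1. Junction partners, 11 higher and 5 lower, became 6 and 1 with the Xist term and also 6 and 1 without those libraries, and ran from 8 to 11 and from 3 to 8 (8 without WT replicate 1, 3 without KO replicate 1) when 1 library was left out. Over all genes, 2102 higher and 1596 lower became 878 and 285 with the Xist term and 728 and 179 without those libraries, and ran from 1228 to 2142 and from 455 to 1624 with 1 library left out, both lowest without KO replicate 1. The cause was not tested. Fits without 1 or 2 libraries have fewer residual degrees of freedom, and without the Xist-positive libraries the lone KO library is assumed to vary like WT.

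Of 318 values of named members over the alternatives, 280 kept their side of the threshold and their direction, 27 lost the call and 9 gained it. The 2 that changed sign were Cdh2 without WT replicate 3 (-0.061) and without KO replicate 3 (-0.0064), and Cdh2 ran from -0.061 to 0.15 when 1 library was left out. Cdh22 and Pcdh15 gave no value with a mean of at least 1 CPM. The log2 fold change of Pcdh1 was 0.28 both with the Xist term and without those libraries, against 0.40 in all libraries.

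The labels give no pairing of libraries by replicate number. Deviations of same-numbered libraries from their group means correlated at 0.106, -0.26 and 0.071, and those of the other pairs at -0.20 to 0.21. With 3 libraries per group these deviations depend on one another, so the values cannot decide whether the numbers pair libraries. With the replicate number as a block, 14 members were called, Celsr2 joining and Cdh16 dropping out (adjusted p = 0.0535), and 3594 genes of the whole table.

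With the core CANNTG, which includes CACCTG, 55.6% of the members' promoter windows matched, beside 72.3% of all windows. With the HNF1 letters GTTAAT, chosen after the data were seen, 8.33% matched, beside 7.1% of all windows. No marker sum changed its direction on library totals or with 1 library left out. Members under about 1 CPM are also limited by counting at this depth.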
